A study of Oryza sativa with 12 samples.

Results

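Expansins are wall proteins that let growing plant cells extend. They loosen the contacts between cellulose and other wall polymers without cutting them, most actively when the wall is acidic. The alpha-expansins (EXPA) and the beta-expansins (EXPB, a large class in grasses) are the main families, and in deepwater rice both are known for their link to the rapid growth of submerged internodes and coleoptiles. The genes described here are 9 rice expansins taken by their locus from the array's probe names: EXPA1 (Os04g0228400), EXPA2 (Os01g0823100), EXPA4 (Os05g0477600), EXPA5 (Os02g0744200), EXPA7 (Os03g0822000), EXPA10 (Os04g0583500), EXPB3 (Os10g0555900), EXPB4 (Os10g0556100) and EXPB11 (Os02g0658800). All 9 were measured, among 22729 genes tested. They are covered by 28 probes, of which 26 were bright enough to be kept.

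The study compared leaves of rice seedlings of 2 genotypes under water and in air. FR13A is a landrace known for surviving submergence, and Goda Heenati is the other genotype. Plants were 14 d old, and leaves of about 20 plants were combined into each sample. There were 4 groups of 3 biological replicates: FR13A submerged for 3 d in water 70 cm deep, Goda Heenati submerged in the same way, FR13A control and Goda Heenati control, the controls standing in a tank without water. The distance from leaf tip to water surface was 52.7 ± 2.3 cm for FR13A and 45.9 ± 2.9 cm for Goda Heenati, so genotype and depth over the leaf tip cannot be told apart under water.

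Each sample was hybridised to its own 1-colour array, and replicate numbers 1 to 3 are the 3 slides, each of which held 1 array of every group. Values below are levels, the log2 signal of a probe relative to the 75th percentile of its array, so a level of 0 is that percentile and levels of different probes are not compared. A gene was called when limma's adjusted p over all genes was under 0.05 and the difference was at least 2-fold. Between 30265 and 34245 probes were well above background on an array, and the number of arrays, 12, limits the precision. The 5 leaf markers (Rubisco small subunits and light-harvesting proteins) were well above background on all 12 arrays, and 0 of 5 were called in either genotype. The probes used for RBCS2, RBCS4, CAB2R and CAB1R were saturated on 1 array of every group, which can hide a difference. Of their other probes, 1 of CAB2R was called lower in FR13A when tested by itself (-1.80). Another of RBCS4 gave -2.44 in FR13A and -2.89 in Goda Heenati and was not called. Among the probes used, RBCS3 had the largest difference, -2.55 ± 0.94 (SE, limma adjusted p = 0.0678) in FR13A and -1.99 ± 0.94 (adjusted p = 0.148) in Goda Heenati. It was called lower in both with the slide as a block (adjusted p = 0.0133 and 0.0374). Of 5 root markers 4 were measured, and their differences had both signs. In Goda Heenati IRT1 and PT11 were called higher in submerged leaves (2.22 ± 0.53 SE, adjusted p = 0.0117, and 2.52 ± 0.54 SE, adjusted p = 0.00677), while LSI1 gave -1.58 (adjusted p = 0.0809) and RCc3 -1.64 (adjusted p = 0.144). In FR13A 0 of the 4 were called, with 1.01 for IRT1, 1.43 for PT11, -1.73 for LSI1 and -0.17 for RCc3. With the slide as a block, IRT1 and PT11 were called higher and LSI1 lower in both genotypes. The meristem marker OSH1 was not called in either genotype (log2 difference 0.37 ± 0.77 SE in FR13A) and OSH15 was too dim to be kept. The part of these markers in the results below was not tested. In pooled leaves, fewer cells of a type and less RNA per cell cannot be told apart.

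After 3 d under water, EXPA1 fell and EXPA7 rose in both genotypes. In the fit without the slide as a block, the other 7 expansins were not called in either. The count in FR13A was 1 higher and 1 lower of 9, where 21.8% of all genes tested were called (10% higher and 11.8% lower). In Goda Heenati it was again 1 higher and 1 lower of 9, against 20.6% of all genes (9.09% higher and 11.5% lower). The median log2 difference over the 9 was 0.09 in FR13A and 0.50 in Goda Heenati, beside 0.05 and 0.09 over all genes. EXPA1 passed the filter on dim probes through the controls alone and EXPA7 through the submerged arrays alone, so a gap between their groups was built into how they were kept. The other 7 were well above background on all 12 arrays, and 0 of these 7 were called in either genotype without the block. With it, EXPB4 was called higher in Goda Heenati (limma adjusted p = 0.0237). The plot of levels shows all 9 genes on every array.

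**Figure D1:**
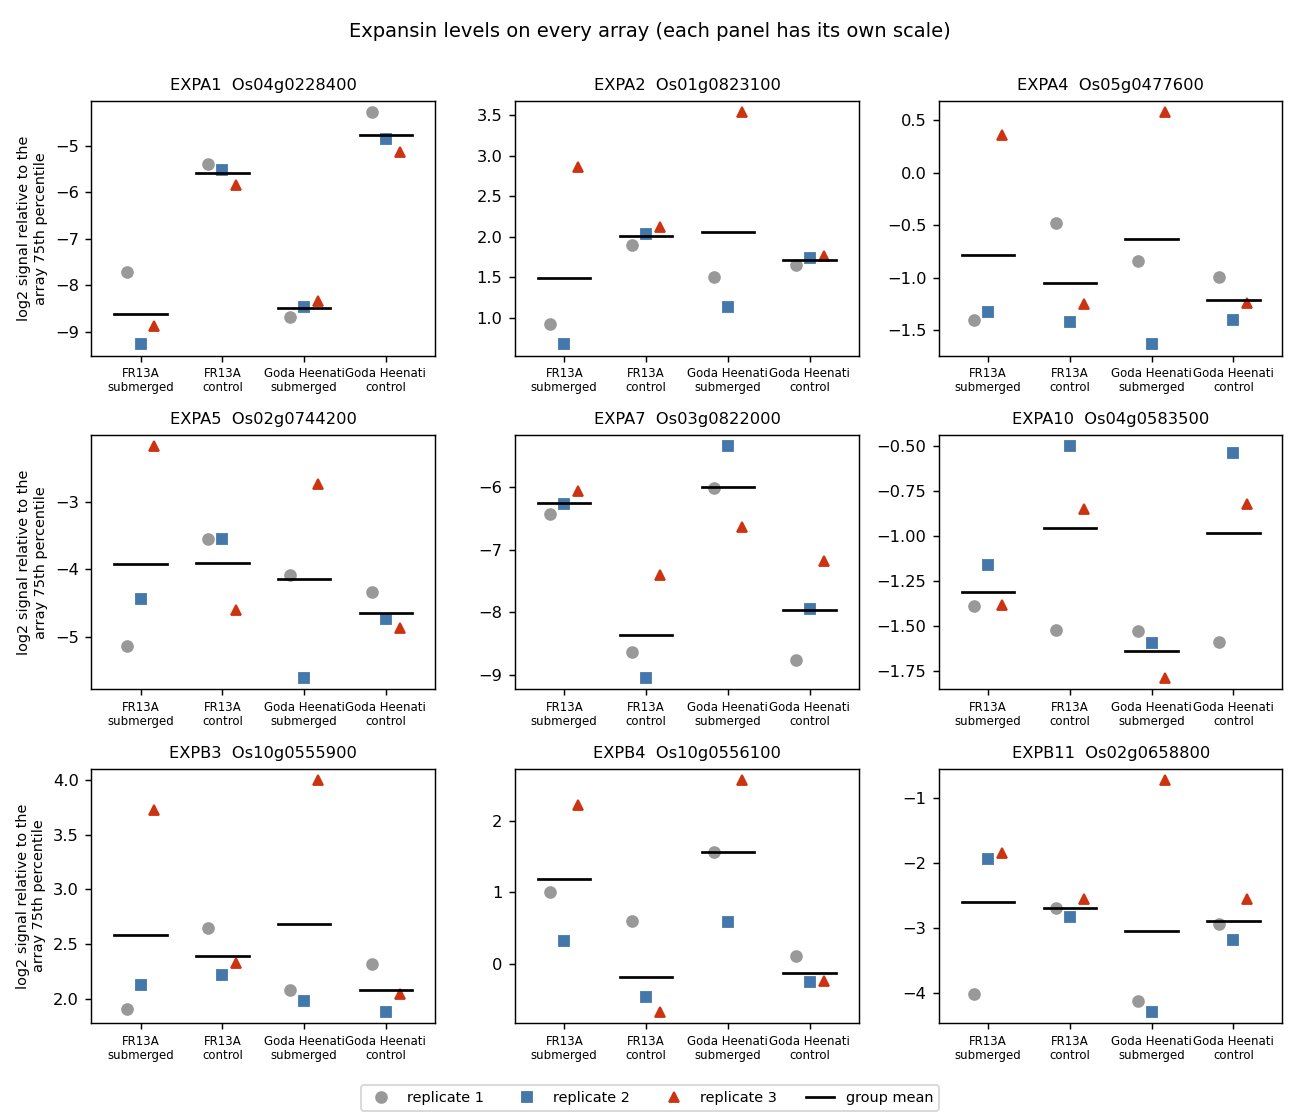
Levels of the 9 expansins on each of the 12 arrays (log2 processed signal minus the array's 75th percentile, vertical axis), with a marker for each replicate and a bar for the group mean, and each panel on its own scale. EXPA1 is low in both submerged groups, EXPA7 is high in both, and the submerged array of replicate 3 sits above the others for EXPA2, EXPA4, EXPA5, EXPB3 and EXPB4.

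EXPA1, an alpha-expansin, fell below detection in submerged leaves of both genotypes. In FR13A its levels were -7.72, -9.26 and -8.87 in submerged leaves, against -5.39, -5.52 and -5.83 in control leaves. In Goda Heenati they were -8.68, -8.46 and -8.34 in submerged leaves, against -4.28, -4.86 and -5.14 in control leaves. None of the 6 submerged arrays was well above background and all 6 control arrays were, with no overlap in either genotype. EXPA1 was therefore at least 6.16-fold lower in submerged FR13A (limma adjusted p = 0.000363) and at least 7.67-fold lower in submerged Goda Heenati (adjusted p = 0.000103), each fold set against the lowest signal well above background on the dim arrays. Within slides 1, 2 and 3 the log2 difference was -2.33, -3.74 and -3.03 in FR13A and -4.39, -3.60 and -3.20 in Goda Heenati, so every slide had the same sign. The gene's second probe was called lower too, by log2 differences of -2.96 in FR13A and -3.06 in Goda Heenati. The call was lost with another background correction (normexp). It gave a log2 difference of 0.94 (adjusted p = 0.522) in FR13A and -1.26 (adjusted p = 0.553) in Goda Heenati. That correction added an offset of 50 to every signal, which by itself shrinks differences between dim signals. The part of this in the lost call was not tested. With FR13A submerged replicate 2, on which that correction's estimate stood apart, left out, normexp gave -0.60 (adjusted p = 0.256) in FR13A and -1.26 (adjusted p = 0.0138) in Goda Heenati. Its background means for both submerged arrays of slide 1 were also negative (-132 and -139), and these arrays stayed in.

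EXPA7, known in rice from work on salt tolerance, rose in both genotypes and stayed dim. In FR13A its levels were -6.43, -6.28 and -6.06 in submerged leaves, against -8.64, -9.05 and -7.40 in control leaves. In Goda Heenati they were -6.01, -5.35 and -6.63 in submerged leaves, against -8.77, -7.95 and -7.18 in control leaves. All 6 submerged arrays were well above background, against 0 of 3 FR13A control arrays and 1 of 3 Goda Heenati control arrays, and the groups did not overlap in either genotype. In submerged FR13A, EXPA7 was higher by at least 2.84-fold (log2 difference 2.11 ± 0.51 SE, limma adjusted p = 0.0118). In submerged Goda Heenati it was higher by 1.97 ± 0.51 (SE) on the log2 scale (adjusted p = 0.0170).

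The call of EXPA7 depended on which slides were kept and, in Goda Heenati, on single arrays and on the probe. Its 3 kept probes were all called in FR13A, with log2 differences of 2.11 to 2.41. In Goda Heenati the other 2 probes gave 1.25 (adjusted p = 0.221) and 0.995 (adjusted p = 0.148), neither called. The mean of the 3 kept probes was called in both genotypes (2.27, limma adjusted p = 0.00204, and 1.40, adjusted p = 0.0224). The call in FR13A was kept when any single array was left out (highest adjusted p = 0.0428). The call in Goda Heenati was lost without submerged replicate 2 (1.64, adjusted p = 0.0688) and without control replicate 1 (1.56, adjusted p = 0.0636). Leaving out slide 1 ended the call in FR13A (2.06, adjusted p = 0.100) and in Goda Heenati (1.57, adjusted p = 0.184). So did leaving out slide 2 (1.78, adjusted p = 0.143, and 1.65, adjusted p = 0.172). Without slide 3 it was kept in both (2.49, adjusted p = 0.00892, and 2.68, adjusted p = 0.00727). Each of these fits had 2 arrays per group. With normexp correction the call was lost in FR13A (2.49, adjusted p = 0.119) and in Goda Heenati (1.25, adjusted p = 0.503). With FR13A submerged replicate 2 left out as well, it was lost in FR13A (1.14, adjusted p = 0.0851) and kept in Goda Heenati (1.25, adjusted p = 0.0303).

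**Figure D2:**
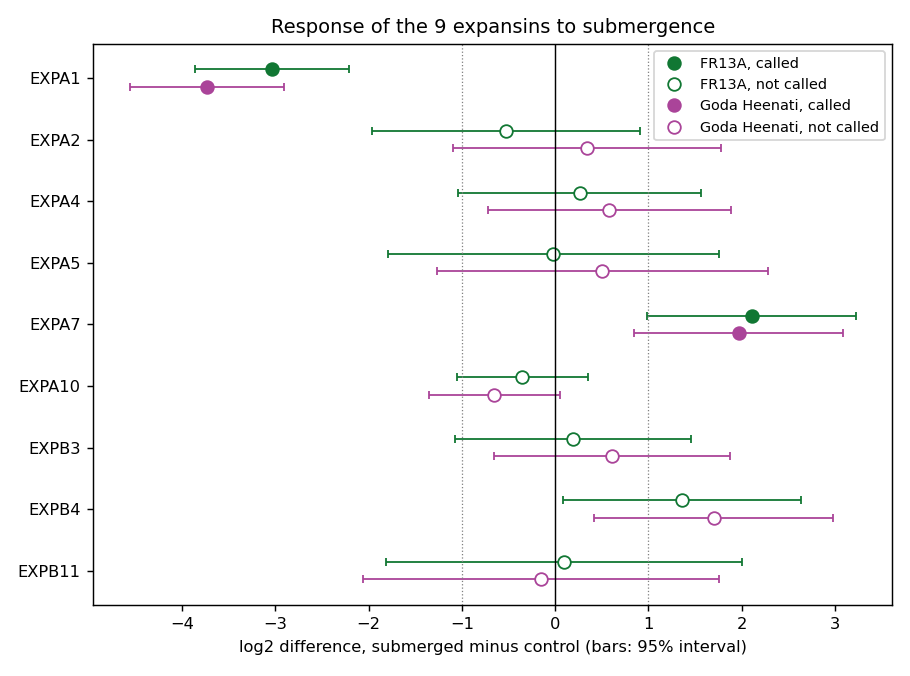
Log2 difference between submerged and control leaves for each expansin (horizontal axis, FR13A and Goda Heenati as separate points, bars the 95% confidence interval of the limma fit, n = 3 arrays a group). EXPA1 lies at -3.03 in FR13A and -3.73 in Goda Heenati, EXPA7 at 2.11 and 1.97, and the intervals of most of the others cross 0.

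EXPB4, a beta-expansin whose mRNA is known to rise with gibberellin in deepwater rice internodes, had the largest difference among the genes that were not called. In Goda Heenati its levels were 1.57, 0.58 and 2.57 in submerged leaves, against 0.11, -0.25 and -0.24 in control leaves. In FR13A they were 1.01, 0.32 and 2.23 in submerged leaves, against 0.60, -0.46 and -0.67 in control leaves. The groups did not overlap in Goda Heenati and overlapped in FR13A, where submerged replicate 2 lay below control replicate 1. The log2 difference in Goda Heenati was 1.70 ± 0.58 (SE, limma adjusted p = 0.0539), and with the slide as a block the adjusted p was 0.0237, which passes the threshold. With the block, 26.8% of all genes were called in Goda Heenati. In FR13A the difference was 1.36 ± 0.58 (SE, adjusted p = 0.106), and with the block the adjusted p was 0.0515. The within-slide differences were 0.41, 0.78 and 2.90 in FR13A and 1.46, 0.83 and 2.81 in Goda Heenati, all above 0 and highest on slide 3. With slide 3 left out the differences were 0.59 (adjusted p = 0.454) in FR13A and 1.14 (adjusted p = 0.172) in Goda Heenati.

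The groups did not overlap for 2 of the 9 genes in FR13A, EXPA1 and EXPA7, and for 3 in Goda Heenati, where EXPB4 joined them. Over all genes the share without overlap was 40.5% in FR13A and 42.3% in Goda Heenati. EXPA1 was kept through the controls alone and EXPA7 through the submerged arrays alone, so their gaps were built in.

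EXPA10, known for aluminium-induced root elongation in rice, was the steadiest member under water. Its levels were -1.39, -1.16 and -1.38 in submerged FR13A, against -1.52, -0.50 and -0.85 in its control. In Goda Heenati they were -1.53, -1.59 and -1.79 in submerged leaves, against -1.59, -0.54 and -0.82 in control leaves. The submerged arrays lay close together and overlapped the control arrays in both genotypes. The log2 difference was -0.35 ± 0.32 (SE, limma adjusted p = 0.446) in FR13A and -0.65 ± 0.32 (adjusted p = 0.159) in Goda Heenati.

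Among the remaining alpha-expansins, EXPA2, EXPA4 and EXPA5 had submerged arrays that disagreed with each other. EXPA2 levels were 0.92, 0.68 and 2.86 in submerged FR13A, against 1.90, 2.03 and 2.12 in its control, and 1.51, 1.13 and 3.54 in submerged Goda Heenati, against 1.65, 1.74 and 1.77 in its control. The submerged arrays of replicates 1 and 2 were thus below every control array of their genotype and that of replicate 3 was above every one. The log2 difference was -0.53 ± 0.65 (SE, limma adjusted p = 0.586) in FR13A and 0.34 ± 0.65 (adjusted p = 0.742) in Goda Heenati. With slide 3 left out, EXPA2 passed the threshold as lower in submerged FR13A (-1.16, adjusted p = 0.0232), while Goda Heenati gave -0.38 (adjusted p = 0.338).

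EXPA4, whose altered expression is known to change growth in transgenic rice, had levels of -1.40, -1.33 and 0.36 in submerged FR13A, against -0.48, -1.42 and -1.25 in its control. In Goda Heenati they were -0.84, -1.63 and 0.57 in submerged leaves, against -0.99, -1.40 and -1.24 in control leaves. Submerged replicate 3 was again the only array of its group above all controls in FR13A, while replicate 1 lay above them as well in Goda Heenati. The log2 difference was 0.26 ± 0.59 (SE, limma adjusted p = 0.776) in FR13A and 0.58 ± 0.59 (adjusted p = 0.513) in Goda Heenati. EXPA5 levels were -5.13, -4.44 and -2.19 in submerged FR13A, against -3.55, -3.55 and -4.60 in its control, and -4.08, -5.60 and -2.74 in submerged Goda Heenati, against -4.33, -4.74 and -4.86 in its control. Its groups overlapped in both genotypes, and the log2 difference was -0.02 ± 0.80 (SE, limma adjusted p = 0.990) in FR13A and 0.50 ± 0.80 (adjusted p = 0.689) in Goda Heenati.

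The other beta-expansins, EXPB3 and EXPB11, are also known from gibberellin-treated deepwater rice. EXPB3 levels were 1.91, 2.13 and 3.72 in submerged FR13A, against 2.64, 2.21 and 2.32 in its control. In Goda Heenati they were 2.08, 1.97 and 4.00 in submerged leaves, against 2.31, 1.88 and 2.04 in control leaves. Submerged replicate 3 stood above all control arrays and the other submerged arrays lay within or near their range, while the spot was saturated on 1 control array of each genotype. The log2 difference was 0.19 ± 0.57 (SE, limma adjusted p = 0.834) in FR13A and 0.61 ± 0.57 (adjusted p = 0.479) in Goda Heenati. EXPB11 was the most scattered of the 9, with levels of -4.01, -1.93 and -1.84 in submerged FR13A, against -2.68, -2.82 and -2.55 in its control, and -4.12, -4.29 and -0.73 in submerged Goda Heenati, against -2.93, -3.18 and -2.55 in its control. Its submerged arrays lay on both sides of the controls in both genotypes, with log2 differences of 0.09 ± 0.86 (SE, limma adjusted p = 0.948) and -0.16 ± 0.86 (adjusted p = 0.917).

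Slide 3 stood apart for most of these genes. The submerged array of replicate 3 was the highest of the 3 submerged arrays for 7 of the 9 expansins in each genotype, beside 34.8% of all genes in FR13A and 30.9% in Goda Heenati. It was higher than both others by more than 1 on the log2 scale in both genotypes for 5 of the 9 (EXPA2, EXPA4, EXPA5, EXPB3 and EXPB4), against 847 of 22182 genes measured on every array, 3.82%. Submerged replicate 3 was also highest for 69.2% and 53.8% of the further expansins described below, in FR13A and Goda Heenati. For the other wall-loosening enzymes described below these shares were 62.5% and 37.5%. It passed the same margin in both genotypes for 2 of 13 further expansins (15.4%) and 2 of 8 other enzymes (25%). That margin was chosen after the values were seen and has no test. The control array of replicate 3 was not raised in the same way: for EXPA2 it lay 0.09 above the higher of the other controls in FR13A and 0.03 in Goda Heenati, and for EXPA5 1.06 and 0.53 below it. The median within-slide log2 difference over the 9 was -0.92, -0.08 and 1.35 on slides 1, 2 and 3 in FR13A and 0.06, -0.60 and 1.82 in Goda Heenati. Over all genes it was 0.09, 0.04 and -0.03 in FR13A and 0.15, 0.08 and 0.03 in Goda Heenati. The 4 arrays of slide 3 had the most probes well above background, 33418 to 34245 against 30265 to 32287 on the other 8 arrays, and the part of this in the pattern was not tested.

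**Figure D3:**
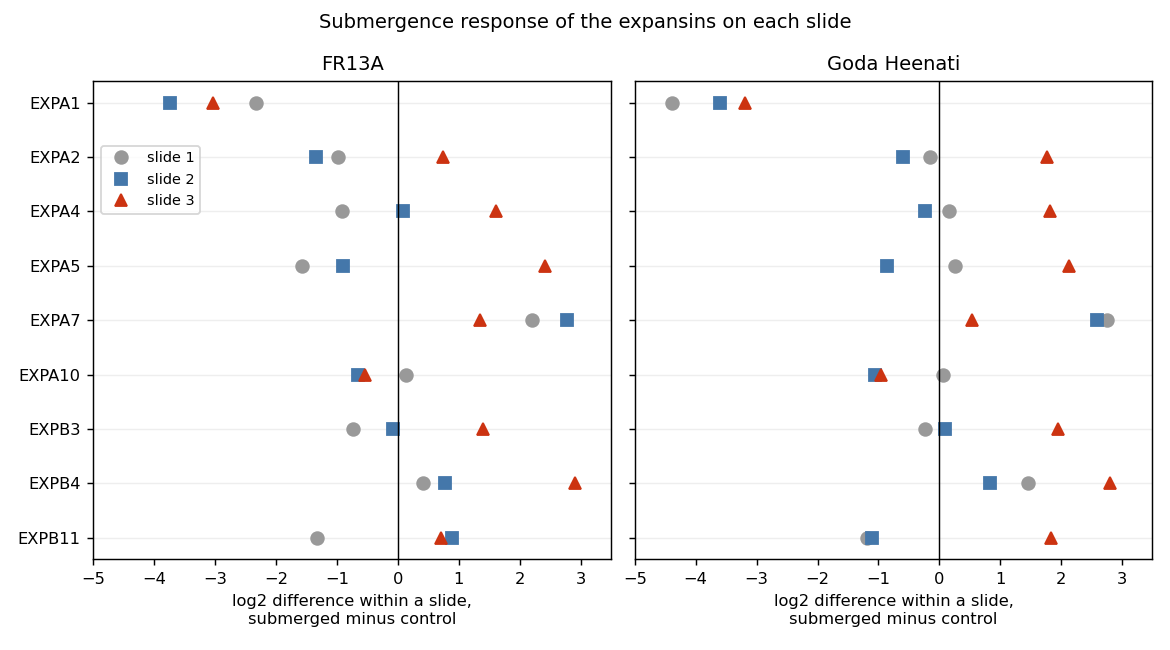
Log2 difference between submerged and control leaves within each slide (horizontal axis, 1 row per expansin, 1 panel per genotype, with circles for slide 1, squares for slide 2 and triangles for slide 3). EXPA1 is below 0 on every slide and EXPA7 above 0 on every slide, while EXPA2, EXPA5 and EXPB3 are below or near 0 on slides 1 and 2 and above 0 on slide 3.

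Several members followed each other across arrays. Over the 12 arrays, EXPA4 and EXPB3 levels correlated at r = 0.96, EXPA4 and EXPA5 at 0.88 and EXPA2 and EXPB3 at 0.87, while EXPA1 and EXPA7 correlated at -0.87. These points share the slides and groups, so they are a description. Members were left out of a search for the most similar pattern among genes measured on every array. The closest to EXPB3 was Os03g0695700 (r = 0.91), and the closest to EXPA2 was Os10g0339400 (r = 0.91). Neither of these loci was called in either genotype, with log2 differences of 0.04 and 0.11 for Os03g0695700 and -0.11 and 0.08 for Os10g0339400 in FR13A and Goda Heenati.

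Whether the genotypes responded differently was tested as the FR13A response minus the Goda Heenati response. With limma, 0 of the 9 expansins passed (0 at an unadjusted p under 0.05), against 0.0924% of all genes. The estimates ran from -0.87 for EXPA2 to 0.70 for EXPA1, with standard errors of up to 1.22 and a 95% interval up to 5.40 wide, so differences of several fold were not detectable. The median was -0.32 over the 9 and -0.02 over all genes. In EXPA1, the response was -3.03 ± 0.37 (SE) in FR13A and -3.73 ± 0.37 in Goda Heenati, a difference of 0.70 ± 0.53. No submerged array was well above background for this gene. The size of each response, and so of their difference, is therefore not known.

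The genotypes were also compared under each condition, FR13A minus Goda Heenati. In submerged leaves 0 of 9 expansins were called (0 at an unadjusted p under 0.05), against 10.2% of all genes, and in control leaves 0 of 9 (again 0 unadjusted), against 8.45%. The lowest adjusted p was 0.702 in submerged leaves and 0.319 in control leaves. The probes of EXPB4 disagreed on the difference between genotypes, as given below. In submerged leaves only EXPA10 did not overlap between genotypes, with every FR13A array above every Goda Heenati array (difference 0.33 ± 0.32 SE, adjusted p = 0.702), beside 25.2% of all genes without overlap. In control leaves 2 did not overlap, beside 20.1% of all genes: EXPA1 was lower in FR13A (-0.82 ± 0.37 SE, adjusted p = 0.319) and EXPA2 higher (0.30 ± 0.65 SE), and neither was called. The SE is pooled over all 4 groups. For EXPA2 the standard deviation was 0.11 and 0.06 in FR13A and Goda Heenati controls, against 1.20 and 1.29 in their submerged leaves.

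Probes of the same gene differed by varying amounts. The kept probes of EXPA2, EXPA4, EXPA10 and EXPB3 lay close together in both responses, the widest gap among these 4 being 0.58 and 0.68 for EXPA4 in Goda Heenati. In Goda Heenati the others spread further, from 0.995 to 1.97 for EXPA7, -3.73 to -3.06 for EXPA1, 0.50 to 0.76 for EXPA5 and -0.16 to 0.06 for EXPB11, where the sign differed. In FR13A the sign differed between probes of EXPA5 (-0.03 to 0.02). EXPB4 has 6 probes, all kept and none called. Its 5 dimmer probes gave log2 differences of up to 1.64 in FR13A and up to 2.40 in Goda Heenati, above 0 for all 6 probes, but depended on the slide. In submerged FR13A they lay between -2.43 and -1.90 on slide 1, between -5.75 and -4.10 on slide 2 and between -3.85 and -2.42 on slide 3. In FR13A control they lay between -2.66 and -2.25, between -7.10 and -5.03 and between -7.10 and -5.31 on the same slides. In Goda Heenati control they lay lower, between -4.61 and -3.62, between -9.19 and -7.72 and between -8.35 and -7.01. Submerged Goda Heenati gave -2.93 to -1.85, -7.93 to -6.04 and -4.96 to -3.64. Tested by itself, each of these 5 was higher in FR13A, by up to 2.47 under water and 3.19 in control leaves. The brightest probe gave -0.39 and -0.05, and none of the 6 was called. The file headers set slide 1 apart from slides 2 and 3. Per these headers its signals saturated at 65527, against 778877 on slide 2 and 779012 on slide 3. An extraction flag named XDR was 1 on slide 1 and 0 on slides 2 and 3. Slide 1 alone held saturated probes (1837 to 2406 per array). The part of this in the probe levels was not tested. The dimmer EXPB3 probes were high on the slide 1 controls as well, at 2.12 and 2.14 in FR13A, against 0.33 to 0.42 on the other slides.

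**Figure D4:**
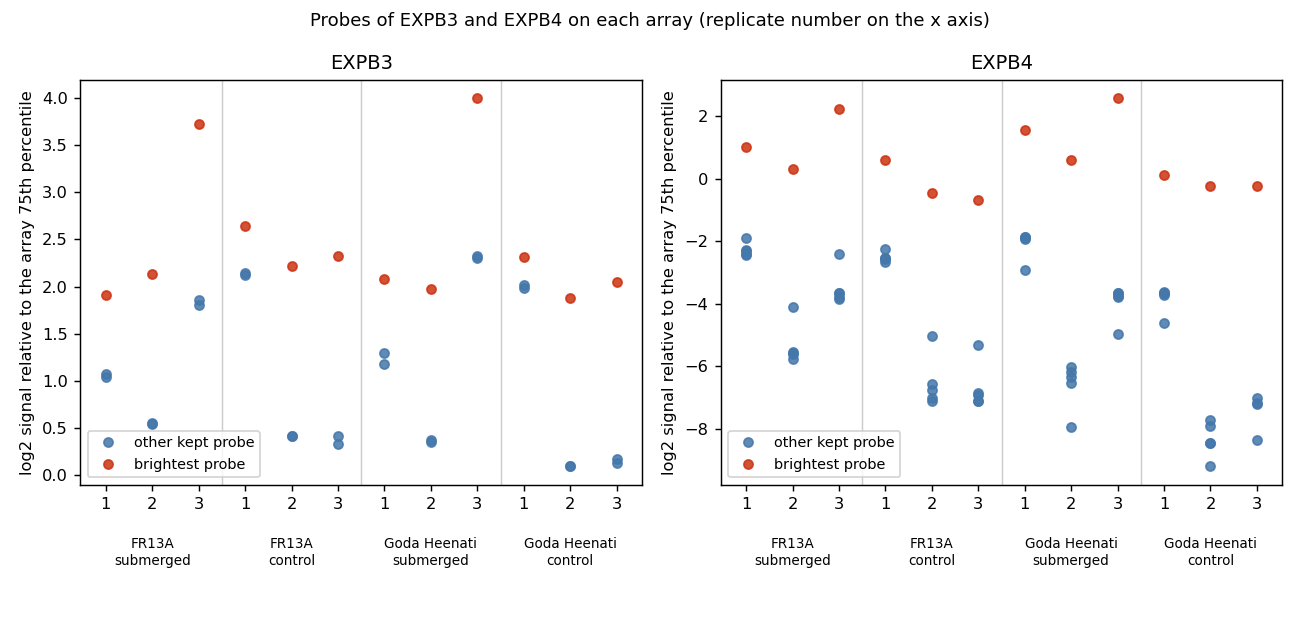
Levels of every kept probe of EXPB3 and EXPB4 on the 12 arrays (vertical axis log2 signal minus the array's 75th percentile, horizontal axis the group and replicate number, red the brightest probe, which stands for the gene, and blue the others). The 5 dimmer probes of EXPB4 are highest on slide 1 in every group, at -2.43 to -1.90 in submerged FR13A, while the brightest probe is highest on slide 3 in both submerged groups.

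Of 17 further rice expansins, 13 were measured and 8 of these were called in each genotype. In FR13A 6 were higher and 2 lower, and in Goda Heenati also 6 and 2, beside the 21.8% and 20.6% of all genes given above. Their median log2 difference was 1.54 in FR13A and 0.76 in Goda Heenati. Of the 10 that were well above background on all 12 arrays, 5 were called higher and 0 lower in each genotype, beside 9.07% higher and 10.1% lower in FR13A and 8.09% and 9.27% in Goda Heenati among the 18100 genes so measured. EXPA3, EXPA9, EXPA32 and EXPB16 were too dim to be kept. EXPA8 was kept through the submerged arrays alone and EXPA13 through the Goda Heenati controls alone, so gaps in these were built in as well. The lower call of EXPA13 in FR13A lies between groups with no array well above background. This list was chosen with earlier results of these data known.

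EXPA6 had the largest rise of the further expansins. Its levels were -1.56, -1.92 and -1.65 in submerged FR13A, against -6.12, -6.45 and -5.45 in its control. In Goda Heenati they were -0.57, -0.56 and -1.14 in submerged leaves, against -6.54, -5.13 and -4.86 in control leaves. The groups were far apart, with differences of 4.29 ± 0.42 (SE, limma adjusted p = 9.7e-05) in FR13A and 4.75 ± 0.42 (adjusted p = 5.76e-05) in Goda Heenati. EXPA8, known from root growth, was not well above background on any control array and was higher under water by at least 3.57-fold in FR13A and by at least 8.55-fold in Goda Heenati. The difference between its responses did not pass the test (-1.38 ± 0.41 SE, adjusted p = 0.503), and it was lower in submerged FR13A than in submerged Goda Heenati (-1.34 ± 0.29 SE, adjusted p = 0.0117). EXPA16 fell, by at least 3.42-fold in FR13A and by 1.48 ± 0.24 (SE) on the log2 scale in Goda Heenati (adjusted p = 0.00155). It was lower in FR13A than in Goda Heenati both under water, by at least 3.97-fold, and in control leaves (-1.70 ± 0.24 SE, adjusted p = 0.000799).

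The other called expansins are named here after their values were seen. EXPB6, which the RefSeq gene table (ASM3414082v1) lists on chromosome 10 next to EXPB2, EXPB3 and EXPB4, was higher in submerged leaves by 3.10 ± 0.86 (SE, limma adjusted p = 0.0229) in FR13A and 2.92 ± 0.86 (adjusted p = 0.0311) in Goda Heenati on the log2 scale. All 5 of its probes were called in both genotypes. Signal shared between such close copies cannot be told apart here. EXPB17 was higher by 1.54 and 1.58, and the expansin-like genes EXPLA1 and EXPLA2, whose wall activity is not established, by 2.01 and 1.90 and by 2.95 and 3.18, in FR13A and Goda Heenati. EXPA13 was the other gene called lower, at least 2.12-fold in Goda Heenati. In FR13A it was not well above background in either group, so no fold is given.

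Of 10 other wall-loosening enzymes, xyloglucan endotransglucosylase/hydrolases (XTH) and endoglucanases, 8 were measured. In FR13A 1 was called higher and 0 lower, and in Goda Heenati 1 higher and 2 lower (with the slide as a block, 1 higher and 4 lower), beside the 21.8% of all genes called in FR13A and the 20.6%, or 26.8% with the block, in Goda Heenati. Among the 7 that were well above background on all 12 arrays, 0 were higher in either genotype, with 0 lower in FR13A and 2 lower in Goda Heenati. Transcript of the XTH at Os06g0335900 was more abundant by at least 20.4-fold in submerged FR13A (limma adjusted p = 0.0193) and higher by 4.92 ± 1.27 (SE) on the log2 scale in submerged Goda Heenati (adjusted p = 0.0174). It passed the filter on dim probes through the submerged arrays alone (0 of 3 FR13A control arrays and 1 of 3 Goda Heenati control arrays were well above background), so a gap was built into how it was kept. GLU1, an endoglucanase needed for internode elongation in rice, was lower in submerged Goda Heenati (-1.44 ± 0.40 SE, adjusted p = 0.0231) and not called in FR13A (-0.81, adjusted p = 0.157). XTH8, known to respond to gibberellin, was lower in submerged Goda Heenati (-1.19 ± 0.39 SE, adjusted p = 0.0468) and not called in FR13A (-0.60, adjusted p = 0.282), where 1 of its 3 probes was called when tested by itself. The difference between the genotypes was not called for either gene.

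**Figure D5:**
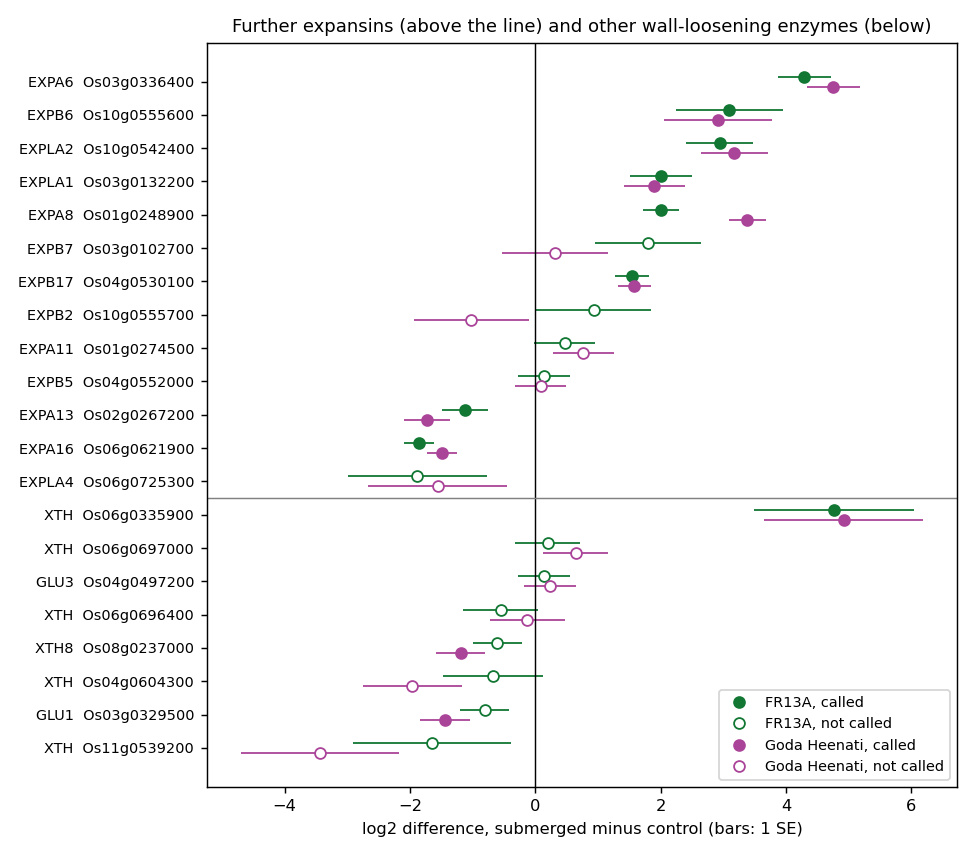
Log2 difference between submerged and control leaves for the further expansins and the other wall-loosening enzymes (horizontal axis, FR13A and Goda Heenati as separate points, filled where called, bars 1 SE). EXPA6 is highest among the expansins at 4.29 and 4.75, EXPA16 lies below 0 in both genotypes, and the XTH at Os06g0335900 reaches 4.77 and 4.92.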

How the data were processed

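Per the labels and the file headers, RNA from 12 leaf samples was labelled with 1 dye and hybridised to Agilent rice 4×44K arrays, and spots were read with Agilent Feature Extraction 10.5.1.1, the version in the submitters' processing notes. Spot intensity, deposited as linear processed signal, had its background removed per the file headers. A value table that the authors deposited is in log2 units, and its normalization is not stated in those sources. Every column has a median of 10.02 and correlated with its own array at r of at least 0.9975. It served as an alternative.

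Control spots and outlier-flagged spots were left out, which left 42418 probes. Levels are log2 processed signals less the 75th percentile of their array, averaged over repeated spots. Probes had to be well above background throughout some group of 3 arrays (33054 were), and the brightest such probe stood for its gene (22729 genes). All 12 arrays entered 1 fit of 4 group means (lmFit and eBayes of limma 3.58.1 under R 4.3.3, 8 residual degrees of freedom), with Benjamini-Hochberg adjustment over all genes. A fold written "at least" applies where the dim group had no array well above background. There each dim array counts at its own signal or at its lowest signal well above background, whichever is higher, and sampling error is not allowed for. The method was tested on simulated data. These held independent noise without slide effects and only probes above the median level, so dim genes and shared slides were not covered.

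Replicate numbers are slides. Deviations of same-numbered arrays from their group means correlated at 0.26 to 0.79 in all 18 pairs of arrays, so the numbers pair the samples, and the fit with the slide as a block is an alternative. Further alternatives were the array median, normexp, quantile normalization, other filters and probe rules, leaving out saturated spots, single arrays and slides. Normexp used an offset of 50, and the median spot signal in place of the mean signal that had been planned. The leave-out of slides 2 and 3, the test of single probes and normexp without FR13A submerged replicate 2 were added after seeing the data.

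The members and lists were chosen with earlier results of these data known. Named genes are all 9 members and up to 3 called genes of each other list with the smallest adjusted p per submergence comparison. Also named are the non-member genes whose pattern was most like that of a member. Gene names were paired with loci from general knowledge, since the array files give loci. The RefSeq table (ASM3414082v1) lists all 9 member names, and all 17 names of the further expansins, on the chromosome of their locus, and 4 of the 10 names of the other enzymes. Sequences and coordinates were not used here.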

Additional observations from a re-analysis of the deposited data

How the results depend on the processing

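Of 1115 member values recomputed under an alternative, 1095 kept their direction where called and their side of the threshold, 11 lost the call, 8 gained it and 1 turned: EXPA1 in FR13A under normexp, at 0.94. Only 4 member values were called, each recomputed under 24 alternatives, and the 11 losses and the 1 turn fell among these. Most of the 1115 could only stay uncalled or gain a call. Of the 41 member values that were not called, 27 changed sign under at least 1 alternative. They stayed uncalled or gained a call as given here. The cause of each change was not tested. Called members in FR13A (2 of 9) became 0 under normexp, 0 under normexp without FR13A submerged replicate 2, 0 with only probes well above background on all 12 arrays (which drops EXPA1 and EXPA7), 1 without slide 1 and 1 without slide 2. Called members in Goda Heenati (2 of 9) became 0, 0, 1 and 1 under normexp, all-array probes, without slide 1 and without slide 2, and 3 under normexp without that FR13A array (2 higher, 1 lower), and ran from 1 to 3 when single arrays were left out. With the replicate block EXPB4 in Goda Heenati was called (1.70, adjusted p = 0.0237), making 3 of 9, and no other member call changed. EXPB4 there was also called with the array median (1.76, adjusted p = 0.0446).

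Over all genes, the FR13A count (4958) was 1859 under normexp, 2841 under normexp without that array, 2579 without slide 1 and 1960 without slide 2. The Goda Heenati count (4681) was 1909, 2630 and 2015 under normexp and without slides 1 and 2. The difference between responses (21) gave 0 under normexp, 7 under normexp without that array, 44 with quantile normalization, 48 with the authors' deposited table, 1 with all-array probes, 83 with the replicate block, 0 without slide 1, 0 without slide 2, 5 without slide 3, and 7 to 43 when single arrays were left out. The submerged genotypes (2308) gave 607, 1294, 985 and 1080 under normexp, normexp without that array, all-array probes and without slide 2, and the controls (1921) gave 546, 747 and 1011 under normexp, all-array probes and without slide 2. Normexp moved the split of higher and lower calls to 1365 and 494 in FR13A (2276 and 2682 otherwise), 1084 and 825 in Goda Heenati (2065 and 2616), 531 and 76 between submerged genotypes (1121 and 1187) and 384 and 162 between controls (936 and 985).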

Other observations

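Some further expansins passed the threshold only with the slide as a block, and they are named after their values were seen. The expansin-like gene EXPLA4 had levels of -5.35, -5.47 and -2.11 in submerged FR13A, against -2.44, -4.11 and -0.75 in its control, and -5.04, -5.03 and -2.96 in submerged Goda Heenati, against -3.03, -3.91 and -1.43 in its control. Every submerged array was below the control array of its own slide, although the groups overlapped. The log2 difference was -1.88 in FR13A (limma adjusted p = 0.239, and 0.00445 with the block) and -1.55 in Goda Heenati (0.338, and 0.0109 with the block). The beta-expansin EXPB7 was higher in submerged FR13A by 1.79 on the log2 scale (adjusted p = 0.143, and 0.0116 with the block), while Goda Heenati gave 0.32 (adjusted p = 0.815). The difference between its responses did not pass (1.47 ± 1.20 SE without the block, and limma adjusted p = 0.580 with the block).

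EXPB2, listed on chromosome 10 between EXPB6 and EXPB3, gave 0.93 ± 0.92 (SE, limma adjusted p = 0.490) in FR13A and -1.02 ± 0.92 (adjusted p = 0.456) in Goda Heenati, and neither response nor their difference (1.95 ± 1.30 SE) was called. Its neighbour EXPB6 was called higher in both genotypes and EXPB4 in neither without the block.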
